A study of Homo sapiens with 15 samples.

Results

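The genes described here encode integrin subunits, laminin chains, the nidogens, dystroglycan, the discoidin receptors and the adaptors that tie integrins to actin, in an immortalized human astrocyte line with a doxycycline-inducible mutant IDH1. They were chosen by symbol: 45 symbols were looked up, and 35 of them were among the 16324 genes listed in either of the study's count tables. The other 10 symbols (ITGA8, ITGA9, ITGAL, ITGAM, ITGAX, ITGB2, ITGB6, ITGB7, LAMA1 and LAMB4) were not analysed here. The day 7 table listed 34 of the 35 among 15230 genes, and the table that also holds day 3 listed 32 among 12575 genes, with 31 in both. Tests were made on the 30 and 28 members that passed a filter on low counts.

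The cells were IHA, a fetal astrocyte line immortalized with SV40 and grown with serum and EGF. At day 7 of doxycycline at 1 µg/ml there were 5 samples, 4 carrying the tag b2 in their titles and 1 the tag b1. The day 3 samples numbered 4, all b2, and the untreated samples 6, of which 3 were b2 and 3 were b1. The tag was taken as a batch. Each group carries the genotype label WT IDH1, none of the samples used here combines doxycycline with the absence of the transgene, and the sources used here do not give the promoter that drives the transgene. Untreated samples have no day in the labels, so time in culture and doxycycline cannot be told apart. RNA was read by bulk MARS-seq, which counts unique molecular identifiers (UMIs) at transcript 3′ ends, and levels below are CPM, the UMI count scaled to 1000000 per library after TMM scaling of library sizes. The depth per library was 2573290 to 5567651 UMIs (day 7 table) and 1816599 to 4656705 UMIs (table with day 3). IDH1 itself had log2 changes of 0.22 ± 0.11 at day 7 and 0.21 ± 0.14 at day 3 (SE, adjusted p = 0.178 and 0.494 in edgeR), read at a 3′ end that the induced transcript may not share. Of 13 astrocyte markers 8 were listed, and VIM and CD44 made up most of their sum. GJA1 had 101 to 252 UMIs per library of the day 7 table, ALDOC 110 to 529 and SOX9 39 to 240. SLC1A3 had 10 to 32 UMIs, NES 6 to 48 and S100B 0 to 8. GFAP, AQP4, SLC1A2, ALDH1L1 and FABP7 were not among the listed genes. In the day 7 table the 8 summed to 8254 to 10012 CPM in day 7 b2, against 7104 to 8319 CPM in untreated b2, which overlap. In b1 the sum was 6885 CPM at day 7, against 6709 to 7423 CPM untreated. In bulk RNA, fewer cells of a type and less RNA per cell cannot be told apart.

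Integrins are receptors made of an alpha and a beta subunit that span the membrane, hold matrix proteins outside the cell and pull on actin inside it. Laminins are cross-shaped trimers of an alpha, a beta and a gamma chain that polymerize into the basement membrane, the thin sheet of matrix under epithelia and around vessels. Nidogens bridge laminin to collagen IV, dystroglycan is a second laminin receptor, and in the brain astrocyte endfeet meet the vessel wall through these proteins.

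The comparison that the series names is day 7 of doxycycline against no doxycycline. At day 7 the integrin alpha subunits ITGA2, ITGA3, ITGA5 and ITGAE, the laminin chains LAMA5 and LAMB3, the nidogen NID2 and the adaptors PXN, PTK2 and VCL rose. The alpha subunit ITGA7, the beta subunit ITGB4, the laminin chains LAMA4, LAMB2 and LAMC1 and the nidogen NID1 fell. These were 10 rises and 6 falls among 30 members tested, against 15.7% of all 12449 genes called in either direction (8.43% up and 7.28% down). Scaled by library size alone, 4 rose and 8 fell, 10 of these 12 among the 16, and no called member changed sign. Over all genes that scaling called 667 up and 1429 down. The median log2 change of the members was -0.02, against -0.02 over all genes tested, and sizes ran from -0.81 for ITGB4 to 1.04 for ITGA2. By role, 5 of 8 alpha subunits, 1 of 5 beta subunits, 5 of 7 laminin chains, 2 of 5 nidogens, dystroglycan and discoidin receptors, and 3 of 5 adaptors were called. Calls came from the quasi-likelihood F test of edgeR, with batch as a term, at a Benjamini-Hochberg adjusted p under 0.05 over all genes. Within b2, in a fit with a mean for each group, 16 members were called (10 up and 6 down), 15 of them among the 16 above, against 15.7% of all genes (7.74% up and 7.94% down). Within b1, which has a single day 7 library, 3 of 30 were called, ITGA6, LAMA4 and LAMC1, all lower, against 7.51% of all genes (3.85% up and 3.66% down).

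**Figure D1:**
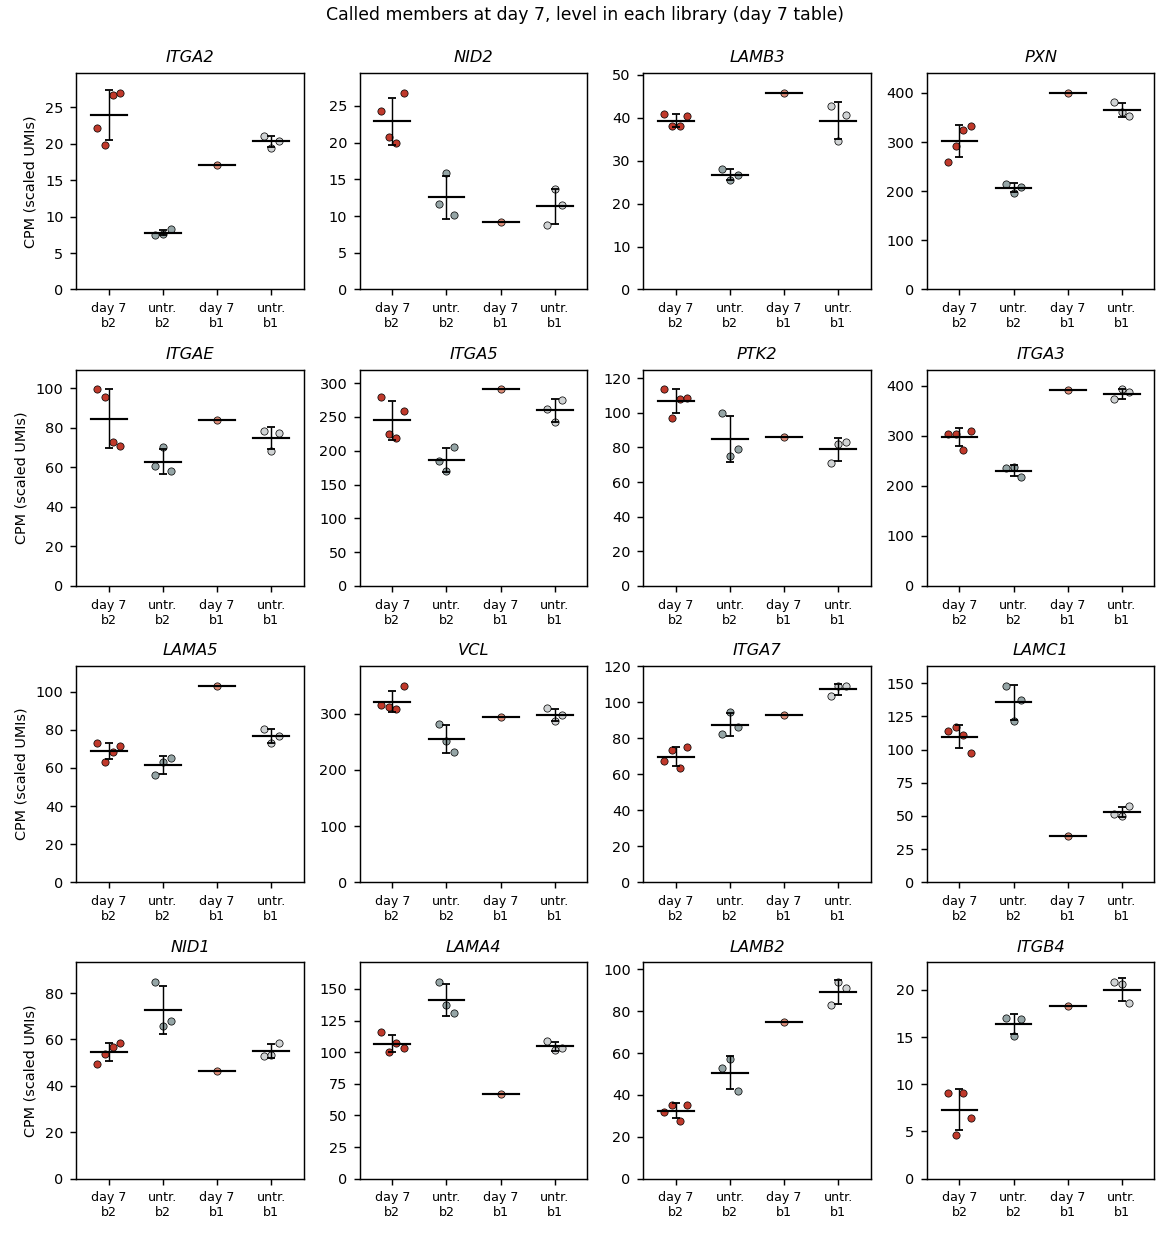
Level (CPM) of the 16 members called at day 7 in each library of the day 7 table, for day 7 b2 (n = 4), untreated b2 (n = 3), day 7 b1 (n = 1) and untreated b1 (n = 3). Points are libraries, horizontal lines group means and bars 1 SD; ITGA2 in b2 stands at 19.9 to 27 CPM at day 7 and at 7.53 to 8.28 CPM untreated, while in b1 the day 7 library lies below the untreated ones.

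ITGA2 (chromosome 5, 52989326 to 53094779, plus strand, GRCh38) encodes the alpha subunit of a collagen receptor. It stood at 22.2, 19.9, 26.7 and 27 CPM in the day 7 b2 libraries, against 7.53, 7.65 and 8.28 CPM in the untreated b2 libraries. In b1 the day 7 library had 17.1 CPM, against 21.1, 19.5 and 20.4 CPM in the untreated libraries. Thus every b2 library at day 7 was above every untreated b2 library, and the b1 library at day 7 was below all 3 of its untreated counterparts. With both batches in 1 fit the log2 change was 1.04 ± 0.27 (SE, adjusted p = 0.0223 in edgeR). Within b2 it was 1.63 ± 0.16 (SE, adjusted p = 4.93e-08 in edgeR) and within b1 -0.25 ± 0.25 (SE, adjusted p = 0.593 in edgeR), so the pooled value averages batches of opposite sign. The pooled call was lost without any 1 of the 3 untreated b2 libraries (adjusted p = 0.063 to 0.0803 in edgeR).

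The other alpha subunits that rose moved by smaller amounts. ITGA5 (chromosome 12, 54395261 to 54419460, minus strand), of the main fibronectin receptor, had 279.7, 224, 219 and 259 CPM in day 7 b2 libraries, against 184, 169.6 and 206 CPM in untreated b2 libraries. Its b1 values were 291 CPM at day 7, against 262, 242 and 276 CPM untreated. In both batches every day 7 value lay above the untreated ones, and the log2 change was 0.33 ± 0.08 (SE, adjusted p = 0.00767 in edgeR). ITGA3, of a laminin receptor, had 304, 304, 271 and 309 CPM in day 7 b2 libraries, against 235, 238 and 217 CPM in untreated b2 libraries. The b1 day 7 library, at 391.7 CPM, lay within the untreated b1 range of 373 to 392.5 CPM. ITGA3 had a log2 change of 0.27 ± 0.07 (SE, adjusted p = 0.0125 in edgeR), and one of 0.03 ± 0.11 within b1; without the untreated b2 library 4 its adjusted p was 0.0537. ITGAE, which pairs with ITGB7 to bind E-cadherin, had 99.5, 95.4, 72.8 and 70.7 CPM in day 7 b2 libraries, against 60.4, 70.1 and 58 CPM in untreated b2 libraries, all higher by a margin under 1 CPM. In b1 ITGAE had 83.7 CPM at day 7, above 78.2, 68.2 and 77.4 CPM untreated. Its log2 change was 0.34 ± 0.10 (SE, adjusted p = 0.0283 in edgeR), and without 1 of 4 b2 libraries (untreated 1 or 4, day 7 17 or 18) its edgeR adjusted p was 0.0509 to 0.098.

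ITGA7 (chromosome 12, 55684568 to 55716043, minus strand), the laminin-binding alpha subunit best known from muscle, fell. It had 67.1, 73.2, 63.5 and 75.2 CPM in day 7 b2 libraries, against 82, 94.4 and 86.1 CPM in untreated b2 libraries. In b1 it had 92.9 CPM at day 7, against 104, 109 and 109 CPM untreated. Day 7 was lower in both batches with no overlap, and the log2 change was -0.30 ± 0.08 (SE, adjusted p = 0.0113 in edgeR); without the untreated b2 library 2 its adjusted p was 0.0625. The alpha subunits ITGA4, ITGA6 and ITGAV had log2 changes of -0.43, -0.28 and -0.00 and did not pass, and ITGA1 and ITGA10, at up to 2.79 CPM in any library, were too low to test.

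ITGB4 (chromosome 17, 75721328 to 75757818, plus strand) was the beta subunit that changed at day 7. It pairs with ITGA6 and anchors keratins at hemidesmosomes in epithelia. ITGB4 had 9.09, 4.61, 9.07 and 6.47 CPM in day 7 b2 libraries, against 17, 15.1 and 16.9 CPM in untreated b2 libraries. The b1 day 7 library had 18.3 CPM, against 20.8, 20.7 and 18.6 CPM in the untreated b1 libraries. All b2 values at day 7 were well below the untreated ones, and the b1 value lay just under its own. Its log2 change of -0.81 ± 0.18 (SE, adjusted p = 0.00414 in edgeR) was -1.12 ± 0.18 within b2 (SE, adjusted p = 0.000109 in edgeR) and -0.12 ± 0.27 within b1 (SE, adjusted p = 0.833 in edgeR). The difference between the batches did not pass (-0.997 ± 0.33, SE, adjusted p = 0.105 in edgeR).

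The other beta subunits did not pass at day 7. ITGB1, the partner of most alpha subunits named here, had 959, 714, 819.5 and 517 CPM in day 7 b2 libraries, against 813, 849.9 and 833 CPM in untreated b2 libraries, and a log2 change of -0.23 ± 0.17 (SE, adjusted p = 0.413 in edgeR). The day 7 b2 libraries spread around the untreated ones. In b1 ITGB1 had 153 CPM at day 7, below 241, 228 and 167 CPM untreated. ITGB5, a partner of ITGAV in a vitronectin receptor, had a log2 change of 0.21 ± 0.08 (SE, adjusted p = 0.0742 in edgeR), and within b2 one of 0.29 ± 0.09 that passed (SE, adjusted p = 0.0214 in edgeR). With the other table's counts of the b2 libraries ITGB5 had 0.13 ± 0.27 (SE, adjusted p = 0.807 in edgeR). ITGB3 and ITGB8 had log2 changes of 0.31 and -0.31.

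Among the laminin chains, falls outnumbered rises 3 to 2. LAMB2 (chromosome 3, 49121114 to 49133118, minus strand), the beta chain of vessel, muscle and kidney basement membranes, had 32.1, 35.1, 27.7 and 35 CPM in day 7 b2 libraries, against 52.9, 57 and 41.8 CPM in untreated b2 libraries. Its b1 values were 74.9 CPM at day 7, against 82.8, 93.9 and 91.1 CPM untreated. Every day 7 value was below the untreated values of its batch, and the log2 change was -0.53 ± 0.10 (SE, adjusted p = 0.00134 in edgeR). LAMA4, an alpha chain of vessel basement membranes, had 116, 99.98, 107 and 103 CPM in day 7 b2 libraries, against 155, 137 and 131 CPM in untreated b2 libraries. In b1 LAMA4 had 66.5 CPM at day 7, against 109, 101 and 104 CPM untreated. LAMA4 was lower in both batches and its log2 change was -0.47 ± 0.08 (SE, adjusted p = 0.000253 in edgeR). LAMC1 (chromosome 1, 183023460 to 183145592, plus strand), the gamma chain of most laminins, had 114, 117, 111 and 97.3 CPM in day 7 b2 libraries, against 148, 122 and 137 CPM in untreated b2 libraries. The b1 day 7 library had 34.7 CPM of LAMC1, against 51.7, 50.3 and 57.4 CPM untreated. The log2 change of LAMC1 was -0.37 ± 0.09 (SE, adjusted p = 0.00506 in edgeR), with every day 7 value below its batch's untreated values.

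The falls of LAMA4 and LAMC1 were not seen with the other table's counts of the same b2 libraries. There the log2 change was -0.16 ± 0.12 for LAMA4 (SE, adjusted p = 0.437 in edgeR) and -0.03 ± 0.12 for LAMC1 (SE, adjusted p = 0.907 in edgeR). LAMB2 fell with both sets of counts, by 0.70 ± 0.12 on the log2 scale with the other table's (SE, adjusted p = 0.000406 in edgeR).

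LAMB3 (chromosome 1, 209614870 to 209652466, minus strand), the beta chain of the laminin that anchors epithelia, rose in b2. It had 40.9, 38, 38 and 40.4 CPM in day 7 b2 libraries, against 28.2, 25.5 and 26.6 CPM in untreated b2 libraries. The b1 day 7 library had 45.8 CPM, above 42.9, 34.7 and 40.6 CPM in untreated b1. The log2 change of LAMB3 was 0.45 ± 0.10 with both batches (SE, adjusted p = 0.00327 in edgeR), a call kept whichever 1 library was left out. It was 0.56 ± 0.11 within b2 (SE, adjusted p = 0.000737 in edgeR) and 0.21 ± 0.17 within b1 (SE, adjusted p = 0.497 in edgeR). LAMA3, the alpha chain of the same trimer, had a log2 change of -0.04 ± 0.18 (SE, adjusted p = 0.9 in edgeR). LAMA5, an alpha chain widespread in adult basement membranes, had a log2 change of 0.25 ± 0.08 (SE, adjusted p = 0.0419 in edgeR). LAMA5 had 73, 63.4, 68.4 and 71.4 CPM in day 7 b2 libraries, against 56.1, 63.4 and 65.2 CPM in untreated b2 libraries, which overlap. In b1 LAMA5 had 103 CPM at day 7, above 80.4, 73.3 and 76.9 CPM untreated. LAMA5 was called in neither batch alone, and not with the other table's b2 counts (0.14 ± 0.09, SE, adjusted p = 0.341 in edgeR). Leaving out 1 library lost the LAMA5 call for 5 of the 11 libraries: untreated b1 2 or 3, untreated b2 1, day 7 b1 13 or day 7 b2 20 (adjusted p = 0.0629 to 0.183 in edgeR). LAMB1 had a log2 change of -0.07 ± 0.07 (SE, adjusted p = 0.581 in edgeR), and LAMA2 and LAMC3, at up to 2.79 CPM, were too low to test.

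ITGB4, LAMA3 and LAMB3 are known from epithelium, so epithelial markers are given beside them. Of 9 keratinocyte and epithelial markers 6 were listed, and their summed level was 599 to 648 CPM in day 7 b2 libraries, against 648 to 681 CPM in untreated b2 libraries. In b1 the sum was 757 CPM at day 7, against 1031 to 1076 CPM untreated. KRT18 made up most of it, while KRT14 had 0 to 11 UMIs and EPCAM 0 to 10 UMIs per library. The part of these markers in the changes of the 3 genes was not tested. The endothelial list, given beside the vessel laminin chains LAMA4 and LAMB2, had 1 of 6 markers listed, TEK, at 2.14 to 4.24 CPM in day 7 b2 libraries, against 4.55 to 6.12 CPM in untreated b2 libraries. In b1 TEK had 3.19 CPM at day 7, against 2.70 to 3.90 CPM untreated. Of 7 microglial and leukocyte markers 2 were listed, CD68 and CSF1R, with a sum of 55.6 to 61.5 CPM in day 7 b2 libraries, against 41.0 to 44.4 CPM in untreated b2 libraries, and of 35.1 CPM in day 7 b1, against 31.7 to 41.7 CPM in untreated b1. CD68 made up most of that sum, and CSF1R had 0.18 to 3.98 CPM per library. In the table with day 3 the sum was 154 to 175 CPM in day 7 b2 libraries, against 124 to 132 CPM in untreated b2 libraries. The 3 listed of 5 neuronal markers summed to 11.5 to 14.7 CPM in day 7 b2 libraries, against 14.9 to 17.2 CPM in untreated b2 libraries, and MBP, the 1 listed of 5 oligodendrocyte markers, had 9.59 to 10.4 CPM in day 7 b2, against 13.7 to 14.8 CPM in untreated b2. In b1 the neuronal sum was 10.8 CPM at day 7, against 12.1 to 13.97 CPM untreated, and MBP had 14.7 CPM, against 15.3 to 18.9 CPM untreated. The 5 listed of 8 fibroblast and pericyte markers overlapped in b2, at 358 to 573 CPM at day 7, against 533 to 557 CPM untreated, and in b1 stood at 926 CPM at day 7, against 773 to 898 CPM untreated. The part of these lists in any change above was not tested.

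The nidogens moved in opposite directions. NID1 (chromosome 1, 235975830 to 236065162, minus strand) had 49.5, 53.9, 56.7 and 58.4 CPM in day 7 b2 libraries, against 84.7, 65.8 and 68.1 CPM in untreated b2 libraries. In b1 NID1 had 46.2 CPM at day 7, against 52.9, 53.4 and 58.3 CPM untreated. NID1 was lower in every day 7 library than in its batch's untreated ones, with a log2 change of -0.37 ± 0.09 (SE, adjusted p = 0.00708 in edgeR); without the untreated b2 library 1 its adjusted p was 0.0575. NID2 (chromosome 14, 52004803 to 52069228, minus strand) had 24.3, 20.7, 19.9 and 26.8 CPM in day 7 b2 libraries, against 11.7, 15.9 and 10.1 CPM in untreated b2 libraries. The b1 day 7 library, at 9.17 CPM, lay within the untreated b1 values of 8.82, 13.6 and 11.5 CPM. The rise of NID2 was 0.60 ± 0.18 (SE, adjusted p = 0.0295 in edgeR) on the log2 scale overall and 0.82 ± 0.17 within b2 (SE, adjusted p = 0.00137 in edgeR), against -0.28 ± 0.35 within b1 (SE, adjusted p = 0.695 in edgeR). It was not called without the untreated b2 libraries 1 or 4 or the day 7 library 20 (adjusted p = 0.0791 to 0.123 in edgeR). Dystroglycan (DAG1) and the collagen receptor kinase DDR1 had log2 changes of -0.05 ± 0.08 and 0.06 ± 0.08. DDR2, the other such kinase, had one of -0.74 ± 0.27 (SE, adjusted p = 0.066 in edgeR), on 2.09 to 3.57 CPM in day 7 b2 libraries, against 4.37 to 5.4 CPM in untreated b2 libraries.

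Of the adaptors at the cytoplasmic side, PXN (chromosome 12, 120210439 to 120265771, minus strand), paxillin, a scaffold of focal adhesions, rose by the largest amount. It had 260.4, 292, 325 and 332 CPM in day 7 b2 libraries, against 215, 197 and 208 CPM in untreated b2 libraries. In b1 PXN had 400.1 CPM at day 7, against 382, 361 and 352 CPM untreated. All day 7 values lay above the untreated values of their batch, and the log2 change was 0.42 ± 0.08 (SE, adjusted p = 0.00109 in edgeR). PTK2, focal adhesion kinase, had 114, 97.1, 108 and 109 CPM in day 7 b2 libraries, against 99.8, 75.2 and 79.2 CPM in untreated b2 libraries, which overlap in 1 untreated library. In b1 PTK2 had 86.1 CPM at day 7, above 71.3, 82.2 and 83.4 CPM untreated. Its log2 change was 0.28 ± 0.09 (SE, adjusted p = 0.0352 in edgeR), and it was lost without any 1 of 4 b2 libraries (adjusted p = 0.0536 to 0.156 in edgeR). VCL, vinculin, which strengthens the link of talin to actin, had 315, 312, 308 and 349.5 CPM in day 7 b2 libraries, against 282, 251 and 232 CPM in untreated b2 libraries. Its b1 value at day 7 was 294 CPM, within the untreated b1 values of 309, 286 and 297 CPM. VCL had a log2 change of 0.23 ± 0.08 (SE, adjusted p = 0.0408 in edgeR), of 0.33 ± 0.07 within b2 and of -0.02 ± 0.12 within b1. Leaving out 1 library lost the VCL call for 6 of the 11 libraries (adjusted p = 0.0519 to 0.151 in edgeR). TLN1, talin, which switches integrins to their active form, and ILK, a scaffold pseudokinase, had log2 changes of -0.18 ± 0.07 and 0.13 ± 0.07 (SE, adjusted p = 0.0912 and 0.242 in edgeR).

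**Figure D2:**
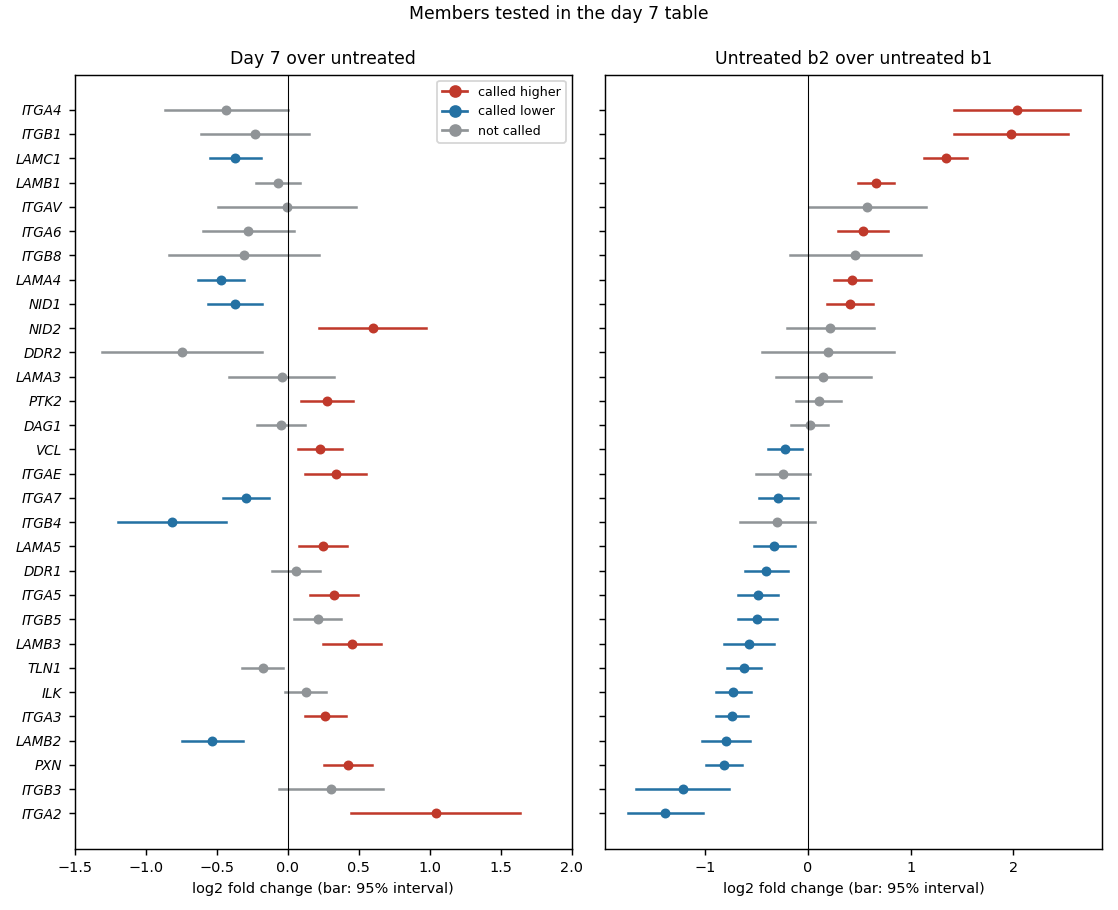
Log2 fold change with 95% interval of the 30 members tested in the day 7 table, for day 7 over untreated with a batch term (left) and untreated b2 over untreated b1 (right), ordered by the right panel. Day 7 changes lie within -0.81 to 1.04 while differences between the untreated batches run from -1.39 to 2.03, and ITGA2 stands at the bottom right as lower in b2 and at the bottom left as higher at day 7.

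The effect of day 7 differed between the batches for 2 of the 30 members, ITGA2 and ITGA6, against 2.64% of all genes tested (1.52% up and 1.12% down). ITGA2 had the larger difference, with 1.88 ± 0.29 (SE, adjusted p = 0.000322 in edgeR) for the b2 change minus the b1 change on the log2 scale. ITGA6 (chromosome 2, 172427354 to 172506282, plus strand), the laminin-binding partner of ITGB4, had 35.3, 46.7, 44.8 and 42.8 CPM in day 7 b2 libraries, against 46.4, 44.1 and 41.1 CPM in untreated b2 libraries. In b1 the day 7 library had 11.6 CPM of ITGA6, against 29.7, 30.8 and 30.6 CPM in the untreated ones. The b2 groups overlapped and the b1 library stood well below its untreated counterparts. ITGA6 changed by -1.39 ± 0.24 within b1 (SE, adjusted p = 0.000623 in edgeR) and by -0.05 ± 0.10 within b2 (SE, adjusted p = 0.797 in edgeR), with a difference of 1.34 ± 0.27 (SE, adjusted p = 0.00498 in edgeR). Both differences rest on the single b1 day 7 library, which is assumed to vary like the other groups.

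Without any doxycycline the batches already differed in most members. Of 30 tested, 7 were higher and 14 lower in untreated b2 than in untreated b1, against 46.6% of all genes tested (23.4% up and 23.2% down). The members' median log2 difference was -0.23, against 0.01 over all genes. ITGB1 had 813, 849.9 and 833 CPM in untreated b2, against 241, 228 and 167 CPM in untreated b1, a log2 difference of 1.98 ± 0.24 (SE, adjusted p = 0.000283 in edgeR). ITGA4, of a receptor for fibronectin and VCAM1, had 7.28, 9.11 and 7.92 CPM in untreated b2, against 1.96, 2.34 and 1.77 CPM in untreated b1. The log2 difference of ITGA4 was 2.03 ± 0.30 (SE, adjusted p = 3.53e-06 in edgeR), and neither gene's batches overlapped. LAMC1 was also higher in untreated b2, by 1.34 ± 0.10 (SE, adjusted p = 5.97e-11 in edgeR) on the log2 scale, a difference larger than its fall at day 7. The table with day 3 holds no b1 library, so the batch differences could not be read there. For the untreated b2 libraries its counts of ITGB1, ITGA4 and LAMC1 were 2.14%, 23.5% and 46.7% of those used here.

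Among those lower in untreated b2, ITGA2 had the largest log2 difference, -1.39 ± 0.18 (SE, adjusted p = 4.06e-07 in edgeR), on the library values given above. ITGB3, of the vitronectin and fibrinogen receptors, had 7.28, 7.11 and 5.4 CPM in untreated b2, against 19.1, 9.74 and 16.9 CPM in untreated b1. Its log2 difference was -1.22 ± 0.22 (SE, adjusted p = 4.81e-05 in edgeR). In the table with day 3 the ITGB3 counts of the untreated b2 libraries were 16.7% of those used here. PXN had a log2 difference of -0.82 ± 0.08 (SE, adjusted p = 1.34e-08 in edgeR), and its day 7 b2 libraries, at 260.4 to 332 CPM, still lay below untreated b1, at 352 to 382 CPM. Of the 5 adaptors and kinases, ILK, TLN1, VCL and PXN were lower in untreated b2 and PTK2 did not pass.

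Day 3 of doxycycline was measured in b2 alone and read from the other table, with its own untreated and day 7 columns. At day 3 ITGA2, ITGA5 and PXN had risen and LAMB2 had fallen. These 4 of 28 members compare with 3.51% of all 10586 genes tested (1.84% up and 1.67% down), and the members' median log2 change was 0.00, against 0.00 over all genes. Each of the 4 calls was lost for 4 to 7 of the 11 libraries when 1 was left out. Without day 3 library 12 or untreated library X2, edgeR called 0 members, with 8 at an unadjusted p under 0.05 each time. Without day 3 libraries 10 or 11 it called 1 of the 4, without untreated library 4 it called 2, and without untreated library X1 none of the 4 but 1 other member, which rose. Over all genes these fits called 191 to 272, against 372 with every library. DESeq2 called ITGA5 alone (273 genes in all) and limma-voom 3 of the 4 (347 genes in all).

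ITGA2 stood at 8.92, 9.35 and 10.00 CPM in untreated libraries, at 14.1, 17.9, 14.4 and 14.2 CPM at day 3 and at 26.9, 23.3, 30.6 and 30.2 CPM at day 7. The 3 groups did not overlap and stood in the order of time. The log2 change of ITGA2 was 0.70 ± 0.19 (SE, adjusted p = 0.0333 in edgeR) at day 3 against untreated and 0.87 ± 0.15 (SE, adjusted p = 0.000267 in edgeR) at day 7 against day 3. ITGA5 stood at 222, 206 and 248 CPM untreated, at 283, 294, 258 and 299 CPM at day 3 and at 334, 269.5, 265 and 302 CPM at day 7. Its libraries at day 3 were above the untreated ones and overlapped those at day 7. ITGA5 changed by 0.34 ± 0.08 (SE, adjusted p = 0.0211 in edgeR) at day 3 and by 0.04 ± 0.08 (SE, adjusted p = 0.824 in edgeR) from then to day 7. PXN stood at 265, 243 and 253 CPM untreated, at 310.4, 272, 324 and 334 CPM at day 3 and at 320.0, 355, 397 and 392.4 CPM at day 7. Its change was 0.29 ± 0.08 (SE, adjusted p = 0.0432 in edgeR) at day 3, and 0.24 ± 0.07 (SE, adjusted p = 0.0516 in edgeR) at day 7 against day 3, which did not pass.

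LAMB2 stood at 65.1, 69.7 and 50.01 CPM untreated, at 48.4, 47.2, 43.7 and 44.6 CPM at day 3 and at 38.9, 42.4, 32.9 and 40.4 CPM at day 7. Its groups did not overlap and each later one was lower, with a log2 change of -0.45 ± 0.12 (SE, adjusted p = 0.0275 in edgeR) at day 3 and of -0.26 ± 0.12 (SE, adjusted p = 0.218 in edgeR) at day 7 against day 3.

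**Figure D3:**
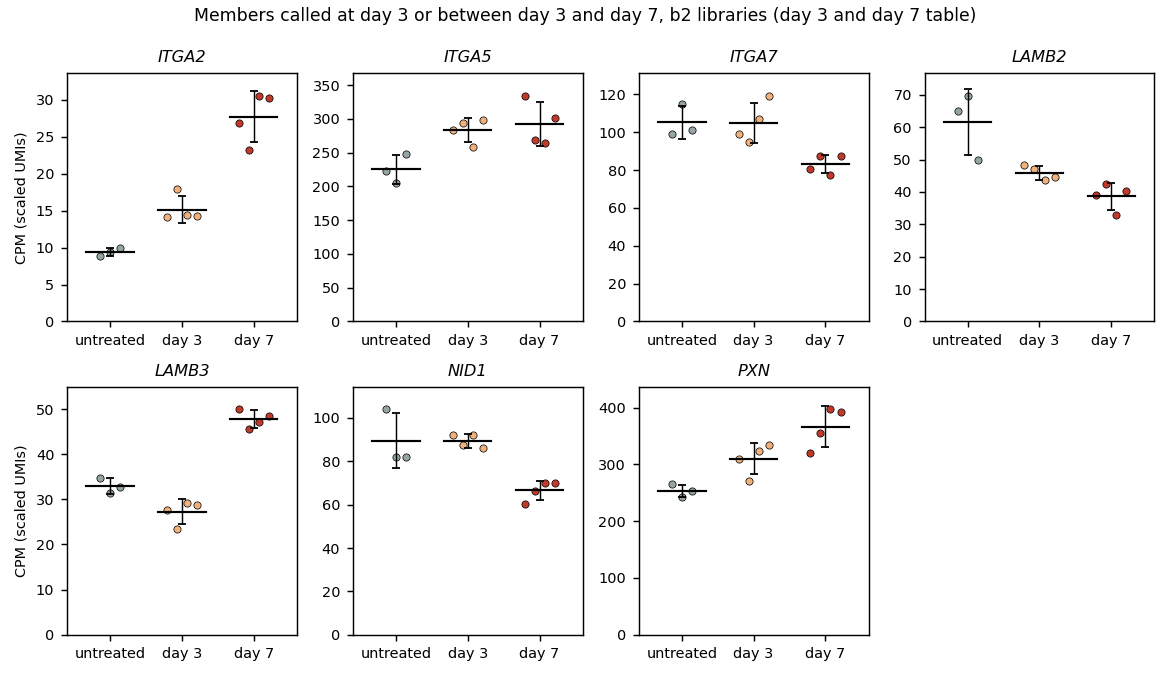
Level (CPM) of the 7 members called at day 3 against untreated or at day 7 against day 3, in the b2 libraries of the table with day 3: untreated (n = 3), day 3 (n = 4) and day 7 (n = 4). Points are libraries, lines means and bars 1 SD; ITGA2 stands higher at each later time, while LAMB3 is lowest at day 3, at 23.4 to 29.3 CPM.

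At day 7 against day 3, ITGA2 and LAMB3 rose and ITGA7 and NID1 fell, 4 of 28 members, against 5.07% of all genes tested (2.76% up and 2.31% down). The members' median log2 change was 0.06, against 0.01 over all genes. LAMB3 stood at 34.8, 31.4 and 32.6 CPM untreated, at 27.6, 23.4, 29.3 and 28.8 CPM at day 3 and at 49.98, 45.5, 47.1 and 48.5 CPM at day 7. It was lowest at day 3, without overlap with the other times, and there its log2 change of -0.28 ± 0.12 (SE, adjusted p = 0.247 in edgeR) against untreated did not pass. LAMB3 rose by 0.81 ± 0.11 (SE, adjusted p = 9.94e-06 in edgeR) at day 7 against day 3. LAMA3, its trimer partner, had a log2 change of -0.06 ± 0.20 (SE, adjusted p = 0.922 in edgeR), on 7.66 to 13.5 CPM at day 3 and 8.34 to 11.8 CPM at day 7. The keratinocyte and epithelial markers summed to 731 to 755 CPM untreated, 758 to 877 CPM at day 3 and 664 to 703 CPM at day 7 in this table, and their part was not tested.

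NID1 stood at 104, 82.2 and 82.2 CPM untreated, at 92.4, 87.4, 92.3 and 86.1 CPM at day 3 and at 60.4, 66.3, 69.8 and 69.8 CPM at day 7. Its level at day 3 overlapped the untreated one, and day 7 lay below both, with a log2 change of -0.42 ± 0.09 (SE, adjusted p = 0.00438 in edgeR) against day 3. ITGA7 had the same order, with 99, 115 and 101 CPM untreated, 99.1, 94.7, 107 and 119 CPM at day 3 and 80.5, 87.5, 77.7 and 87.3 CPM at day 7. Its change against day 3 was -0.34 ± 0.09 (SE, adjusted p = 0.017 in edgeR), not called without day 3 library 12 or day 7 library 19 (adjusted p = 0.109 and 0.0619 in edgeR). ITGB4 stood at 21.1, 18.7 and 20.4 CPM untreated, at 15.2, 12.1, 14.4 and 13 CPM at day 3 and at 10.7, 5.21, 11 and 7.82 CPM at day 7. Its groups did not overlap, but neither step passed, with -0.56 ± 0.19 (SE, adjusted p = 0.111 in edgeR) at day 3 and -0.61 ± 0.20 (SE, adjusted p = 0.0796 in edgeR) at day 7 against day 3. Without day 7 library 17, 7 members were called at day 7 against day 3, and 645 genes in all, against 537 with every library. ITGA11, a collagen receptor subunit that was tested in this table alone, had 6.21 to 11.3 CPM at day 3, and log2 changes of -0.05 ± 0.26 (SE, adjusted p = 0.957 in edgeR) there and -0.36 ± 0.25 (SE, adjusted p = 0.474 in edgeR) at day 7 against day 3.

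Both tables hold the same 7 b2 libraries, but for some members not the same counts. ITGB1 had 550 UMIs over these libraries in the table with day 3, against 23410 UMIs in the day 7 table, and ITGB5 had 133 UMIs, against 3082 UMIs. These are 2.35% and 4.32% of the day 7 table's counts. For ITGB3, LAMA4, ITGA4, DDR2, ITGB8 and LAMC1 the share was 14.6%, 24.7%, 32.2%, 39%, 42.4% and 52.5%, and for the other 23 members held by both tables it was 82.6% to 101%. Of the genes whose mean reached 20 UMIs per library, 7 of 29 members (24.1%) and 2381 of 9394 genes (25.3%) kept less than 2/3 of the count in the day 7 table. Under 10% of it were 2 of the 29 members (6.90%) and 378 genes (4.02%). For ITGB1 and ITGB5 the day 7 table thus holds 42.6 and 23.2 times the other's count, and the cause of the difference was not tested. For LAMC1 the share itself was 57.5% in day 7 libraries and 46.7% in untreated ones, and for LAMA4 26.9% and 22.3%.

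**Figure D4:**
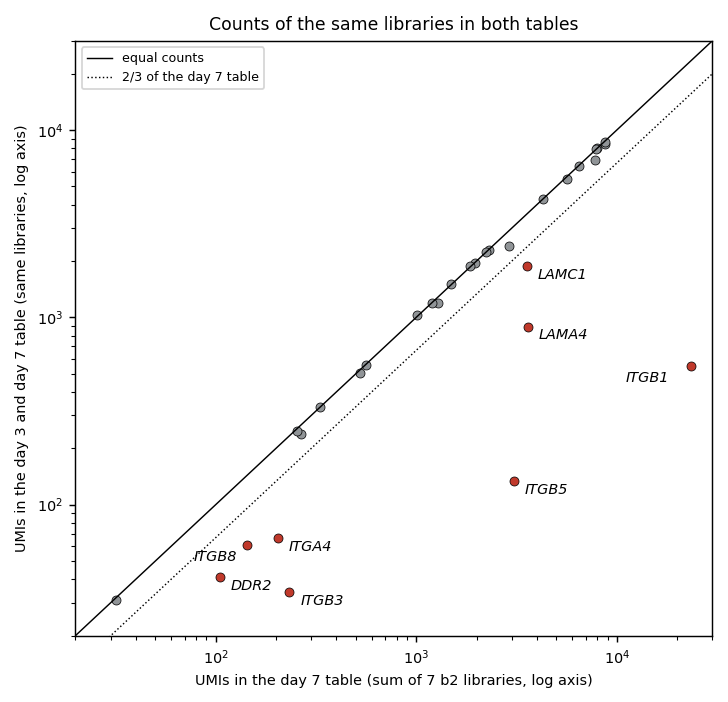
UMIs of each member summed over the 7 b2 libraries that both tables hold, in the day 7 table (x, log axis) and in the table with day 3 (y, log axis), 1 point per member. The solid line marks equal counts and the dotted line 2/3 of the day 7 table's count; 8 named members lie below it, ITGB1 the farthest with 550 UMIs against 23410 UMIs.

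Promoter sequence is shown for 6 of the 7 members that were called in at least 2 of the comparisons with doxycycline, picked after their values were seen; ITGA7 is the other one. Of the 35 members, 29 matched a promoter of 300 bases in RefSeq's annotation of GRCh38.p14, with 47 promoters in all, each running from 250 bases before to 50 after a transcript start. Capitals mark 3 motifs, searched on both strands: TGANTCA, bound by AP-1 factors, GGGCGG, the GC box, and GGAATG, bound by TEAD factors. The matches shown do not overlap each other, except for 2 GC boxes of PXN that share 1 base. LAMB3 and PXN have more than 1 start, and the farthest apart are shown.
ITGA2, chr5:52989102-52989401, plus strand: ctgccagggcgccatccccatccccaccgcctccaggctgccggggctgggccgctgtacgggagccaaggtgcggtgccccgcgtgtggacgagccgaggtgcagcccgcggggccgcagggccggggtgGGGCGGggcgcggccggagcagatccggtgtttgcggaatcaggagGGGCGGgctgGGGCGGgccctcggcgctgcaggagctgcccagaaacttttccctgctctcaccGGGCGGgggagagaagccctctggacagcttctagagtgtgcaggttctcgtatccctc
ITGA5, chr12:54419217-54419516, minus strand: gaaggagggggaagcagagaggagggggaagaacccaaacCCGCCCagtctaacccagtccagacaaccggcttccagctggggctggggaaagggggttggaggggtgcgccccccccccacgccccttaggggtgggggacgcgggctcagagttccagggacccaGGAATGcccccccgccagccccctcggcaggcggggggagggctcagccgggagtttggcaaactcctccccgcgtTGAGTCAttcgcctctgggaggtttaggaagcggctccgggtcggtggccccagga
LAMB3, chr1:209652376-209652675, minus strand: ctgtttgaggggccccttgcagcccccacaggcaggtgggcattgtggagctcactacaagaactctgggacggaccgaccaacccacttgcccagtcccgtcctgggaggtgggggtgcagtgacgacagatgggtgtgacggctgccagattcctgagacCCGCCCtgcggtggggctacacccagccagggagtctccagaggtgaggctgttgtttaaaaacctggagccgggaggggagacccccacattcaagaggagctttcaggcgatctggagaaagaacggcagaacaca
LAMB3, chr1:209651325-209651624, minus strand: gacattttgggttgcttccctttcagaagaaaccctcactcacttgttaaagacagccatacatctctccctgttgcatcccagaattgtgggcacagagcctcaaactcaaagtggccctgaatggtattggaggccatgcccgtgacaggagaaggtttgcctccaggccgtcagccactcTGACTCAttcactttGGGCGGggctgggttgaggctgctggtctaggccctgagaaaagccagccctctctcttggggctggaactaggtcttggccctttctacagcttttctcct
LAMB2, chr3:49133001-49133300, minus strand: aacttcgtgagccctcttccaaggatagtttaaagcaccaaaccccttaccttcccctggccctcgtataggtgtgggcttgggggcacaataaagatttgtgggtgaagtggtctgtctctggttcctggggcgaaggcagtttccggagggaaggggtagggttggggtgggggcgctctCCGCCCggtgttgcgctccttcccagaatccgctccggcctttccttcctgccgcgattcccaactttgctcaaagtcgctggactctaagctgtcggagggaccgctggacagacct
NID1, chr1:236065041-236065340, minus strand: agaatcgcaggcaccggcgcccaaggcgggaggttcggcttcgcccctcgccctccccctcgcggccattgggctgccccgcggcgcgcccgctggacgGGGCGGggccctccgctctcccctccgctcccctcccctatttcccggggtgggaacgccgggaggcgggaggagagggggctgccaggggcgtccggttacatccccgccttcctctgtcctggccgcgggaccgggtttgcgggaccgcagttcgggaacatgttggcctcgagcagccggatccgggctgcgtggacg
PXN, chr12:120265681-120265980, minus strand: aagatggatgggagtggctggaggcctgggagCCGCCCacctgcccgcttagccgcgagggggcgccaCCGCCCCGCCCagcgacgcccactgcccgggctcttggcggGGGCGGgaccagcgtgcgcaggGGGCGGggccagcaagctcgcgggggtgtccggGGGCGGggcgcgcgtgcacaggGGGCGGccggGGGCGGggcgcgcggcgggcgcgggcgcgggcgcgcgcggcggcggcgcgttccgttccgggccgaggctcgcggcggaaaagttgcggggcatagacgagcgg
PXN, chr12:120250114-120250413, minus strand: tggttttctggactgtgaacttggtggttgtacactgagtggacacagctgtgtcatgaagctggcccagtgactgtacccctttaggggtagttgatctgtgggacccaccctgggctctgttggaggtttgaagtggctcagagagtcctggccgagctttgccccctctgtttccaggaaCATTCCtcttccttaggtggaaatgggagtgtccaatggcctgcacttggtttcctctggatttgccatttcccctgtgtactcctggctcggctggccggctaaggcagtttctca
The ITGA2 window holds 4 GC boxes and neither other motif. ITGA5 holds an AP-1 match, TGAGTCA, whose first base lies 6 bases before the start, with a TEAD match and a GC box. The downstream LAMB3 start has an AP-1 match, TGACTCA, 67 bases before it, and the upstream start has none. LAMB2 and NID1, which fell, hold 1 GC box each. The upstream PXN start has 8 GC boxes, and the downstream start has none but a TEAD match. Over all members, 5 of 47 promoters held TGANTCA, against 7.71% of 35116 promoters, 29 of 47 held GGGCGG, against 45.0%, and 7 of 47 held GGAATG, against 14%. The median GC content was 65.3% over the 47 promoters, against 58.7% over all promoters. These matches describe letters in the windows and were not set against binding.

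The genes around these members were read from 5 lists of known partners. Of 28 integrin ligands and basement membrane components tested at day 7, 3 rose and 11 fell, with a median log2 change of -0.22, against -0.02 over all genes. These calls pool both batches. For COL6A1, the gene of this list whose difference between batches had the smallest p, the b2 change minus the b1 change was -0.72 in log2. That value rests on the single b1 day 7 library. COL6A1 is an example, not the only gene of the list whose day 7 change differed between the batches. The falls were led by EDIL3, a ligand of ITGAV integrins (-0.98 ± 0.11), FBLN2, fibulin 2, which binds laminin and nidogen (-0.65 ± 0.08), and FBN1, fibrillin (-0.61 ± 0.07; SE, adjusted p = 2.65e-06, 2.82e-06 and 4.71e-06 in edgeR). At day 7 against day 3 the same list had 1 rise and 9 falls of 24, against 5.07% of all genes called. At day 3 against untreated it had 1 rise, TNC (0.54 ± 0.11), and 1 fall of 24, against 3.51% of all genes called. Of 43 focal adhesion adaptors and kinases 4 rose and 3 fell at day 7, among them ACTN4, an actin crosslinker (0.47 ± 0.09), LIMS2, a partner of ILK (-0.83 ± 0.14), and SORBS3, vinexin (-0.37 ± 0.07; SE, adjusted p = 0.00127, 0.000213 and 0.00118 in edgeR). Both batches are pooled here too. For PTPN11, of this list, the b2 change minus the b1 change was 0.87 in log2, on the single b1 day 7 library.

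Of 27 membrane partners and other matrix receptors, 4 rose and 2 fell at day 7, with both batches pooled. For MET, the gene of this list whose difference between batches had the smallest p, the b2 change minus the b1 change was 1.14 in log2. That value rests on the single b1 day 7 library. MET too is an example, not the only gene of its list with such a difference. PLAUR, the urokinase receptor (0.60 ± 0.07), and CD44, a hyaluronan receptor (0.40 ± 0.07), rose, and CSPG4, a proteoglycan (-0.40 ± 0.09), fell (SE, adjusted p = 3.19e-06, 0.000615 and 0.00294 in edgeR). CD44 had 454 to 706 CPM over the libraries of the day 7 table, but 136 to 268 CPM over those of the table with day 3. The day 7 changes of partner genes against untreated are not given for the other table's counts. Of 24 genes of the dystroglycan complex and its glycosylation, 2 rose and 2 fell: SSPN, sarcospan (-0.81 ± 0.14), and DMD, dystrophin (-0.71 ± 0.23), were the falls (SE, adjusted p = 0.000388 and 0.0365 in edgeR). Of 25 genes of integrin traffic and the hemidesmosome 2 rose and 4 fell, with both batches pooled. For DST, of this list, the b2 change minus the b1 change was 0.74 in log2, on the single b1 day 7 library. COL17A1, the collagen of hemidesmosomes, rose (1.74 ± 0.40) and so did EHD1, of endosome recycling (0.41 ± 0.07), while DAB2, an adaptor of integrin uptake, fell (-0.52 ± 0.10; SE, adjusted p = 0.00446, 0.000379 and 0.000637 in edgeR). The level of COL17A1 and its change within each batch are not given here. The shares called in the lists were 50%, 16.3%, 22.2%, 16.7% and 24% in the order given, against 15.7% of all genes.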

How the data were processed

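RNA was measured by bulk MARS-seq in 15 samples. The authors deposited UMI counts per gene as whole numbers in 2 tables, for which the submitters' processing notes name hg38, STAR 2.4.2a, HTSeq, cutadapt and bcl2fastq. The sources used here do not say whether counting used strand. In each table every listed gene reaches 6 UMIs in 1 library or more. A further 55 columns of other per-sample values were not used. The counts of 2 untreated columns, X1 and X2, carry names that samples of both batches share, and were taken as untreated b2 without saying which sample each is.

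Genes were filtered with filterByExpr, 1 filter per table, and TMM-scaled. Tests were by robust quasi-likelihood in edgeR 4.0.16 (R 4.3.3), at a Benjamini-Hochberg adjusted p under 0.05 over the 12449 and 10586 genes tested. The day 7 comparison had a batch term. The batch, difference and within-batch values came from a separate fit of the same table, with a mean for each of the 4 groups. The table with day 3 had 1 fit. CPM used TMM-scaled totals. Alternatives were DESeq2 1.42.0, limma-voom (limma 3.58.1), other scalings and filters, no batch term, b2 alone, the other table's b2 counts, a replicate block and leaving out each library; values within each batch were added after seeing the data. The fits were also run on simulated counts with 1 spread shared by all genes and changes put into some of them. That run does not show how the fits behave on the spread of these data. Figures used matplotlib 3.10.9 in Python 3.11.15. Gene positions are from GENCODE release 29.

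The members and lists were chosen with earlier results of these data known, and 1 further gene that meets the naming rule is not reported here. Every member called in a comparison with doxycycline is given with its values, and the 6 members with the largest batch difference likewise. Of each partner list, at most 3 called genes are named at day 7 and at most 1 in each other comparison. The 27 pairs of libraries of 1 group and batch had r of 0.978 to 0.989, and their chi-square per degree of freedom was 1.59 to 7.05, so no pair agreed within sampling noise and each library was counted once. No label says that the samples within a group came from separate cultures, and p-values measure only the spread between these samples. Members are not replicates of a condition.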

Additional observations from a re-analysis of the deposited data

Results flagged for a closer look

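In day 7 b2 library 19, ITGA3 stood apart from the other 3 day 7 b2 libraries by Dixon's test, at 271 CPM in the day 7 table, against 304 to 309 CPM in the others. The same library had 328 CPM of ITGA3 in the table with day 3, against 362 to 365 CPM. ITGA2 in day 3 library 10 was apart from the other day 3 libraries, at 17.9 CPM, against 14.1 to 14.4 CPM. These were 3 of 86 groups checked, and chance flags about 1 in 20. The day 7 effect differed between the batches by 1.88 for ITGA2 and by 1.34 for ITGA6 (b2 minus b1, log2; edgeR adjusted p = 0.000322 and 0.00498), and both rest on 1 day 7 library of b1.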

How the results depend on the processing

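At day 7 the number of members called was 0 with no batch term (9 at an unadjusted p under 0.05; 316 genes called in all), where LAMC1 changed sign (0.0092), and 3 within b1, where ITGA2 (-0.25), NID2 (-0.28) and VCL (-0.020) did. Apart from the block below, the other alternatives for the day 7 count gave 12 to 16 (1495 to 2096 genes in all). Leaving out 1 library gave 10 to 16 (1405 to 1970 genes in all), with 10 without untreated b2 library 4 (1574 genes). The main fit called 16 members and 1955 genes. With library size alone the split was 4 up and 8 down of 12, against 10 and 6, and the median over all genes moved to -0.09. With the other table's b2 counts 12 of 28 members tested were called, all among the 16, without LAMA4, LAMC1, LAMA5 and ITGAE. That fit called 1495 genes in all. A block was also tried for the untreated samples numbered 1 and 2 in both batches, with all other libraries at 1 shared level. It left untreated b1 library 3 and untreated b2 library 4 as the direct reference for day 7. With it, 3 of the 16 stayed called (391 genes in all). Deviations of same-numbered untreated samples of the batches had r of -0.00387 and 0.00456, within -0.0266 to 0.0207 for all pairs of numbers. With 3 samples per group, these values cannot show whether same-numbered samples share more than a number. The batch count was 21 with the block too. At day 3 the 4 calls became 2 with library size alone, 1 with DESeq2 and 3 with limma-voom (369, 273 and 347 genes in all). They were 0 to 4 when 1 library was left out (191 to 578 genes in all, against 372 with every library). At day 7 against day 3 they ranged from 4 to 7 when 1 library was left out and 4 to 6 otherwise, the batch count from 19 to 22, and the difference between batches from 2 to 3, where the b1 day 7 library cannot be left out. Depth limits ITGA1, ITGA10, LAMA2 and LAMC3, which were not tested in the day 7 table.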
